A study of Mus musculus with 4 samples.

Results

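Insulin-like growth factor (IGF) binding proteins are described here as 4 genes, Igfbp3, Igfbp4, Igfbp5 and Igfbp7, out of 31017 genes with a symbol of their own in the aortic matrices and 31025 in the lung matrices. They were taken by name, with earlier results of these data known, and their RNA was followed in every vessel type of both tissues, lymphatic cells included. The data are 4 droplet single-cell RNA libraries, made from aortas and left lung lobes of mice with an intact Oct4 gene and of mice whose endothelial cells had lost it. Oct4, with the symbol Pou5f1, is a transcription factor best known from pluripotent cells. All mice were female, of strain C57/B6J and of an Apoe knockout line in which endothelial cells are traced by eYFP, and all had eaten a Western diet for 5 weeks. Wild type and knockout refer to Oct4 only, since both groups were Apoe knockouts. Cells came from 2 wild-type and 3 knockout mice, were released in buffers holding 1 µg/mL actinomycin D, which blocks transcription, and were sorted for eYFP. Littermates described as Cdh5-negative set the gate. Each group is thus 1 library, the mice in it cannot be told apart, no difference has a replicate check and no test was run. The intervals given are 95% intervals of counting error only.

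IGF binding proteins are secreted proteins that hold IGF1 and IGF2 in blood and tissue fluid and so set how much of either reaches the IGF1 receptor. IGFBP3 and IGFBP5 also build the large circulating complexes with the acid-labile subunit, IGFBP4 is released from its ligand by the protease pappalysin, and IGFBP7 binds IGFs weakly but attaches to collagen IV of vessel basement membranes and to CD93 on endothelial cells. In blood vessels they come from endothelium, mural cells and fibroblasts in proportions that differ from organ to organ.

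The promoters are shown first, because the RNA of the 4 genes stood highest in different vessel types. Igfbp3 lies at chr11:7206086-7213923 on the minus strand of mm10 (GENCODE M21), beside Igfbp1. Igfbp4 lies on the same chromosome at chr11:99041244-99054392 on the plus strand. Igfbp5 lies at chr1:72857932-72874884 on the minus strand, beside Igfbp2. Igfbp7 lies at chr5:77349240-77408041 on the minus strand, and Polr2b and an antisense transcript, Gm34648, overlap it on the plus strand. No source used here states whether counting used strand, and without strand the reads of Igfbp7 and of the overlapping genes could not be told apart. The sequences are the 120 bases before the RefSeq start of each gene (GRCm38.p6), written 5′ to 3′ on the gene's own strand. Capitals mark matches, on either strand, to a TATA box (TATAAA or TATATA), the ETS core (GGAA), the SOX core (ACAAT), the KLF core (CACCC) or the FOXO motif (GTAAACA), families of factors with known roles in endothelium. No matches overlapped.

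Igfbp3, chr11:7213924-7214043, minus strand: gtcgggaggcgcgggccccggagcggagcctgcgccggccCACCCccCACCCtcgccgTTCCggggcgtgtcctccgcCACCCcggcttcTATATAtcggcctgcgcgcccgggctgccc
Igfbp4, chr11:99041124-99041243, plus strand: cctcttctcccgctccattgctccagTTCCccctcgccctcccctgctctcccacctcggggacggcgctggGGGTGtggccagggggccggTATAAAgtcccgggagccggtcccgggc
Igfbp5, chr1:72874866-72874985, minus strand: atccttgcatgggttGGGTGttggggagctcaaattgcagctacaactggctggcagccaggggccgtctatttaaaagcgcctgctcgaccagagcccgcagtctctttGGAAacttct
Igfbp7, chr5:77408046-77408165, minus strand: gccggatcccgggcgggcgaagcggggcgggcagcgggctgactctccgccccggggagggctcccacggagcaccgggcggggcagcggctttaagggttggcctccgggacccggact

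A TATA box occurred in the windows of Igfbp3 and Igfbp4, against 8.01% of 32851 promoter windows of the same length. The KLF core, present in 31.7% of all windows, occurred 3 times in Igfbp3 and once each in Igfbp4 and Igfbp5. The ETS core was found in the windows of Igfbp3, Igfbp4 and Igfbp5, and in 73.4% of all windows. No window of the 4 held the SOX core (14.1% of all windows) or the FOXO motif (1.36%), and the Igfbp7 window held none of the motifs searched. A match describes letters and not a bound site.

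The libraries held 1034161 to 4483756 UMIs (unique molecular identifiers, 1 per captured RNA molecule) in 449 to 1623 barcodes. With at least 500 UMIs and at most 15% mitochondrial UMIs, 404 wild-type aortic, 1569 knockout aortic, 775 wild-type lung and 508 knockout lung cells were kept, and at most 2 barcodes were shared by any pair of libraries. Between 96.0% and 97.5% of kept cells fell into endothelial-like clusters. In them Pecam1, an adhesion molecule of endothelium, was detected in 76.3% to 91.9% of cells and Cdh5, the endothelial cadherin gene, in 65.2% to 86.7%. Pou5f1 itself gave 0 to 2 UMIs per library, so it could not check the genotype labels. Levels below are CPM, the UMIs of a gene per 1000000 summed UMIs of the endothelial-like cells, or of a cluster, in 1 library. In such sums fewer cells of a type and less RNA per cell cannot be told apart. Macrophage-like cells (14 in the aorta, 36 in the lung) serve as the background that free RNA could give. In the aorta 13 of them came from the knockout and 1 from wild type, so the wild-type aorta has almost no such background. In the lung the name of the macrophage-like cells is uncertain, since Scgb1a1, a gene of airway epithelium, led the cluster.

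Igfbp7 RNA stood highest in the alveolar aerocytes of the lung and in a capillary-like cluster of the aorta. Igfbp4 RNA was spread over nearly every vessel type except those same capillaries. Igfbp5 RNA lay mainly in lymphatic-like cells of both tissues, and Igfbp3 RNA was scarce. Of its 281 endothelial-like UMIs, 272 came from aortic cells, but the knockout aorta was also by far the deepest library. In CPM, Igfbp3 stood at 36.7 and 56.1 in the aortas (wild type, then knockout) and at 6.34 and 0 in the lungs.

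**Figure D1:**
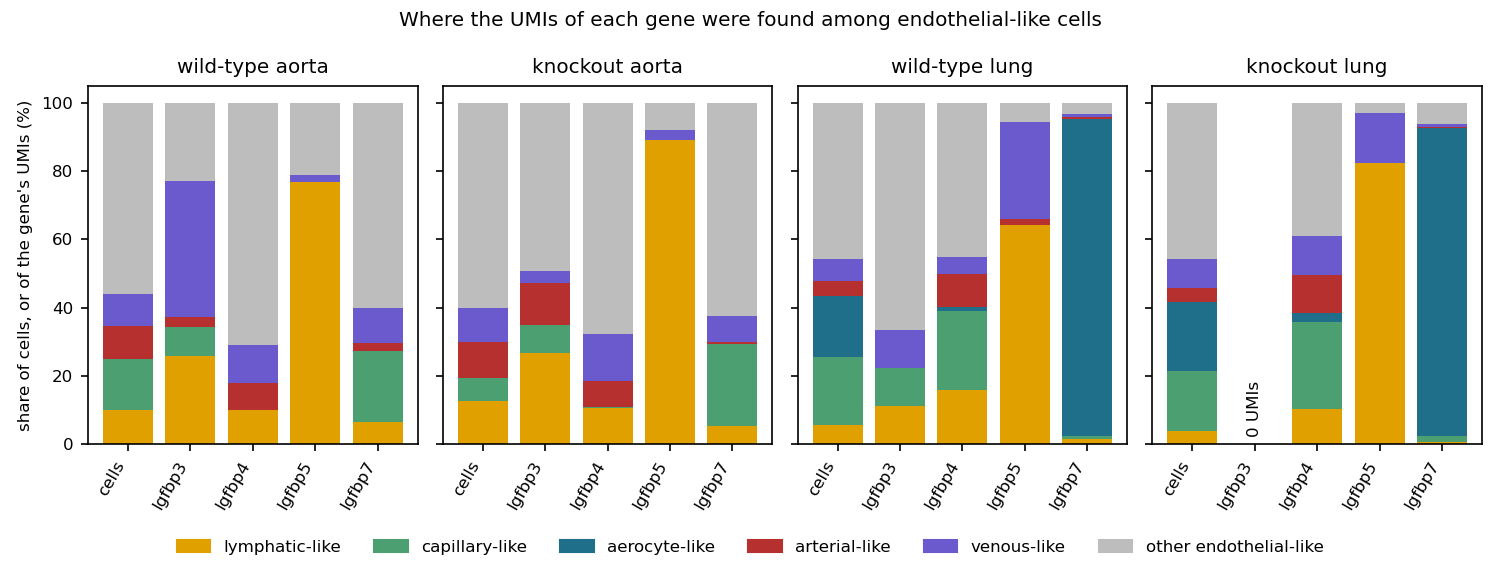
Share of endothelial-like cells in each vessel class (first bar of each panel) and share of each gene's UMIs found in that class (other bars), in percent, with 1 panel per library. In both lungs over 90% of Igfbp7 UMIs sat in the aerocyte-like cluster, and in all 4 libraries lymphatic-like cells, the bottom band, held most Igfbp5 UMIs.

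**Figure D2:**
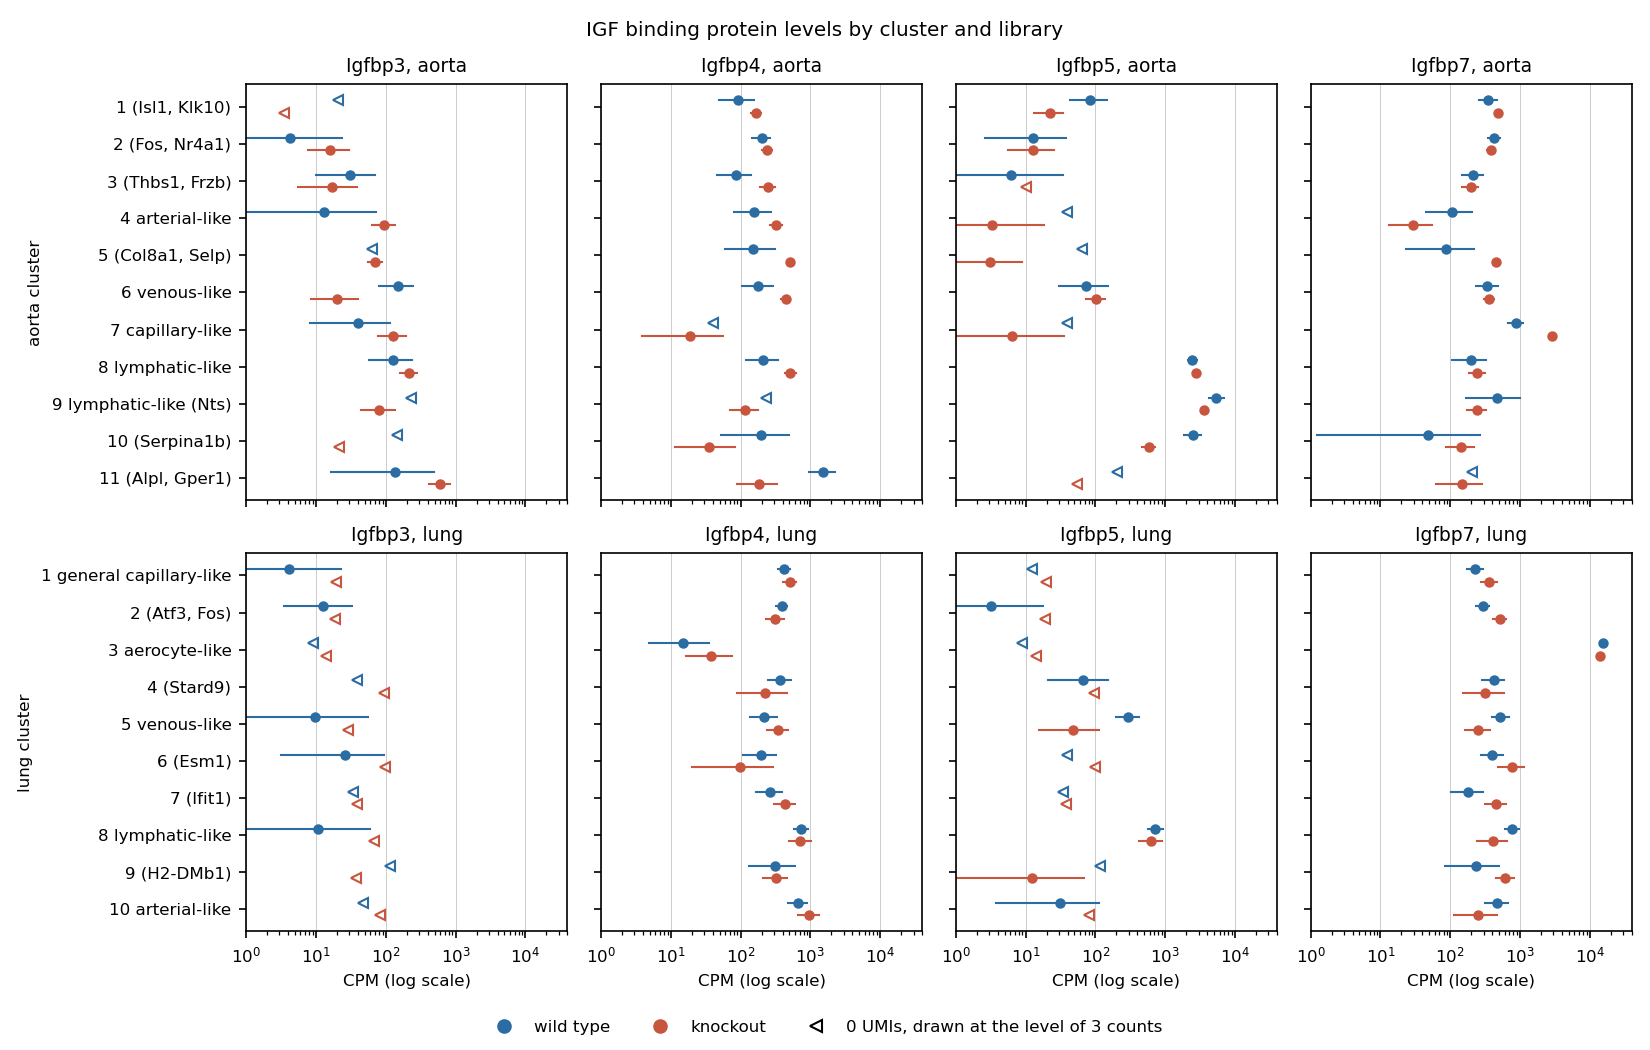
CPM of each gene (log axis) in each endothelial-like cluster of the aorta (upper panels) and the lung (lower panels), wild type in blue and knockout in red, with 95% counting intervals, which are cut at 1 CPM, as lines. Open triangles stand for 0 UMIs and are drawn at the level that 3 counts would give, and unnamed clusters carry leading genes in brackets.

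Igfbp7, the binding protein of the vessel basement membrane, stood far higher in the lung than in the aorta. Its level was 331 CPM in the wild-type aorta, 449 CPM in the knockout aorta, 3841 CPM in the wild-type lung and 3459 CPM in the knockout lung. Both lungs stood above both aortas, and the aorta was 11.6-fold lower than the lung in wild type (interval 10.3 to 13.02) and 7.70-fold lower in the knockout (7.27 to 8.15). In those comparisons 22.4% and 24.2% of the genes measured were at least 2-fold apart, and 14.5% and 16.3% were at least 2-fold lower in the aorta. Of the 3 members that passed the filter on low values, Igfbp7 was at least 2-fold lower in the aorta and Igfbp5 at least 2-fold higher, in each genotype.

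Over 90% of the lung UMIs came from 1 cluster. Lung cluster 3 carried the markers of aerocytes, the broad, thin capillary cells that face the alveolar gas (Fibin, Ednrb, Emp2, Car4, Chst1 and Tbx2), and Igfbp7 itself had been left out of the clustering. It made up 17.7% of wild-type and 20.1% of knockout endothelial-like cells and held 92.9% and 90.4% of their Igfbp7 UMIs. The level there was 15142 CPM in wild type and 13772 CPM in the knockout, 42.3-fold (38.2 to 47.0) and 32.2-fold (28.6 to 36.4) that of all other endothelial-like cells of the same lung. Single aerocytes held a median of 36.5 Igfbp7 UMIs in wild type, from 0 to 119, and of 20.5 in the knockout, from 0 to 160. Only 1 of 132 wild-type and 2 of 98 knockout aerocytes held none. The 9 pericyte markers together gave 0 UMIs in the wild-type aerocytes and 1 UMI in those of the knockout.

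In the other lung clusters Igfbp7 was low. It ranged from 182 to 774 CPM in wild type and from 245 to 758 CPM in the knockout, while the macrophage-like cells of the lung gave 169 CPM (108 to 251) in 7 of 36 cells. The general capillary-like cells, which serve as the progenitor-like partner of aerocytes in the alveolar wall, stood at 229 CPM in 33 of 149 wild-type cells and at 362 CPM in 28 of 86 knockout cells. The wild-type share, 22.1%, was close to that of the macrophage-like cells, 19.4% at a median of 2061.5 UMIs per cell. At an equal 1000 UMIs per cell the shares were 17.6% (11.3 to 25.7) and 3.85% (0.0973 to 19.6), with intervals that overlapped. Aerocytes stood 66.2-fold above these general capillary-like cells, cluster 1, in wild type and 38.0-fold in the knockout. With genotypes summed, cluster 1 was the lowest of the lung endothelial-like clusters, at 281 CPM. General capillary markers were also detected in unnamed clusters 2, 6, 7 and 9 (10, 8, 12 and 9 markers, against 12 in cluster 1). Those clusters stood at 363, 500, 307 and 523 CPM.

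Aortic cluster 7 was capillary-like, with Gpihbp1, the endothelial docking protein of lipoprotein lipase, and with Rgcc, Cd300lg and Tcf15. Its Igfbp7 level was 872 CPM (675 to 1110) in the 59 wild-type cells and 2898 CPM (2638 to 3176) in the 102 knockout cells. Against all other aortic endothelial-like cells of the same library this was 3.06-fold (2.30 to 4.03) and 8.19-fold (7.35 to 9.10) higher. In the arterial-like cluster 4, Igfbp7 stood at 104 CPM in wild type and 29.3 CPM in the knockout. Neither was higher than the 147 CPM of the aortic macrophage-like cells, of which 13 of 14 came from the knockout. Cluster 4 took its name from Sox17 and Stmn2 among its leading genes. Clusters 1, 2, 5 and 11, left unnamed, had 10, 11, 13 and 11 arterial markers detected against its 9. With genotypes summed, Igfbp7 stood at 467, 397, 436 and 115 CPM in those clusters. Outside the endothelium, the smooth muscle-like cluster held 6590 CPM and the fibroblast-like cluster of the aorta 3904 CPM.

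Igfbp4, whose protein is freed from IGFs by pappalysin, was found in most vessel types. Its level was 158 CPM in the wild-type aorta, 308 CPM in the knockout aorta, 309 CPM in the wild-type lung and 330 CPM in the knockout lung. The wild-type aorta stood apart below the other 3 libraries, whose values lay close together. The wild-type aorta was 1.95-fold lower than the wild-type lung (1.62 to 2.36), while in the knockout the ratio of aorta to lung was 0.933 (0.823 to 1.06). The macrophage-like cells of the aorta gave 202 CPM (101.04 to 362) in 6 of 14 cells, a share of 42.9% against 20.1% and 33.4% of aortic endothelial-like cells, at medians of 3677, 2074.5 and 2303.5 UMIs per cell. All 11 Igfbp4 UMIs of these macrophage-like cells came from the 13 of the knockout, so the wild-type aorta has no background level of its own. The aortic shares did not exceed that of the macrophage-like cells, whereas the capillary-like cells of the same libraries gave 12.8 CPM with genotypes summed. The macrophage-like cells of the lung gave 21.1 CPM in 2 of 36 cells, well under the lung endothelium.

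Among the endothelial-like clusters of the wild-type lung, the lymphatic-like and arterial-like ones stood highest in Igfbp4. The arterial-like lung cluster stood at 658 CPM in wild type and 954 CPM in the knockout, where 21 of the 35 UMIs (60%) came from 1 cell. The lymphatic-like lung cluster stood at 742 and 719 CPM, and general capillary-like cells at 420 and 504 CPM. Between clusters given the same name, the wild-type aorta was lower for the arterial-like and lymphatic-like ones. Its arterial-like cluster 4 stood at 157 CPM, 4.20-fold (2.17 to 8.77) below the arterial-like lung cluster. Its lymphatic-like cluster 8 stood at 211 CPM, 3.52-fold (2.00 to 6.63) below the lymphatic-like lung cluster. The arterial-like pairing rests on the cluster name. Wild-type aortic clusters 1, 2, 5 and 11, with more arterial markers detected than cluster 4, stood at 90.9, 201, 150 and 1508 CPM. The last value came from 5 cells. The venous-like clusters, at 180 CPM in the aorta and 217 CPM in the lung, were 1.20-fold apart with an interval from 0.611 to 2.42.

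The endothelial-like clusters richest in Igfbp7 were the ones almost without Igfbp4. In the aortic capillary-like cluster Igfbp4 gave 0 UMIs in 59 wild-type cells, which allows up to 39.6 CPM at 3 counts, and 3 UMIs, or 19.0 CPM, in 102 knockout cells. In the aerocytes it stood at 14.96 CPM in wild type and 37.8 CPM in the knockout, 26.7-fold (11.3 to 82.6) and 11.02-fold (5.52 to 25.8) below the other endothelial-like cells of the lung. In the knockout aorta all other endothelial-like cells together stood 16.8-fold (5.75 to 81.7) above the capillary-like ones. Thinned to 1000 UMIs, 190 of 194 aerocytes held Igfbp7 without Igfbp4 and 4 held both. Among all 985 thinned lung cells, these aerocytes included, 168 held Igfbp4 without Igfbp7, 316 held Igfbp7 without Igfbp4, 65 held both and 436 neither. Of the 187 thinned general capillary-like cells, 47 held Igfbp4 alone, 17 held Igfbp7 alone, 19 held both and 104 neither. Over 21 endothelial-like clusters and the macrophage-like lung cluster, the Pearson correlation of the 2 genes on the log2(CPM + 10) scale was -0.40, a description over clusters that share libraries.

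**Figure D3:**
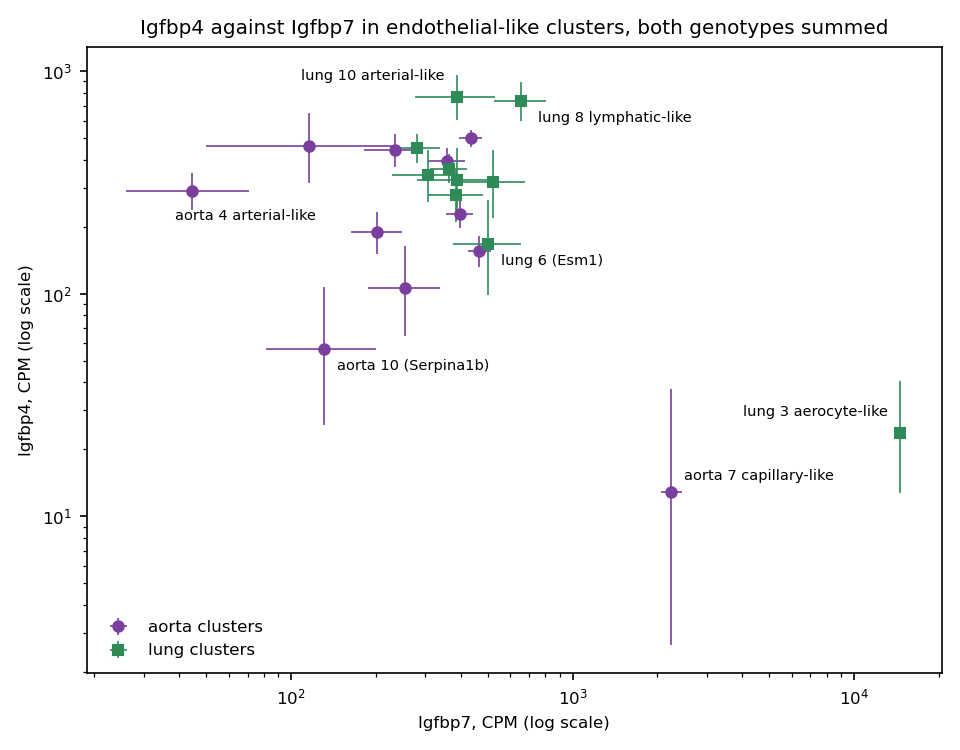
Igfbp4 against Igfbp7 level in CPM (both axes log) in the endothelial-like clusters of aorta (circles) and lung (squares), genotypes summed, with 95% counting intervals. The aortic capillary-like cluster and the lung aerocyte-like cluster lie alone at the lower right, and all other clusters lie to the left and above.

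Igfbp5, a binding protein that also attaches to extracellular matrix, marked lymphatic endothelium. Its level was 334 CPM in the wild-type aorta, 336 CPM in the knockout aorta, 74.7 CPM in the wild-type lung and 36.5 CPM in the knockout lung. Both aortas stood above both lungs, 4.46-fold (3.57 to 5.62) in wild type and 9.23-fold (6.57 to 13.4) in the knockout. Lymphatic-like cells, 9.90% and 12.7% of aortic and 5.51% and 3.89% of lung endothelial-like cells, held 76.7%, 89.2%, 64.2% and 82.4% of the Igfbp5 UMIs in the same order of libraries. No Igfbp5 UMI was found in the aortic macrophage-like cells.

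Lymphatic level and lymphatic number both differed between the tissues. In aortic cluster 8, with the lymphatic genes Ccl21a, Lyve1 and Mmrn1, Igfbp5 stood at 2443 CPM in wild type and 2753 CPM in the knockout, in 26 of 34 and 79 of 117 cells. In aortic cluster 9, led by Nts and Ptn and holding only 5 wild-type cells beside 76 of the knockout, it stood at 5400 and 3625 CPM. In the lymphatic-like lung cluster it stood at 721 and 629 CPM, in 9 of 41 and 4 of 19 cells. Cluster for cluster, aortic cluster 8 was 3.39-fold (2.55 to 4.56) above the lung lymphatic cluster in wild type and 4.38-fold (3.00 to 6.64) in the knockout. A UMI was found in 22.0% and 21.1% of the lung lymphatic-like cells and in 76.5% and 67.5% of those of aortic cluster 8.

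Outside the lymphatics, Igfbp5 was sparse and uneven. Blood endothelial-like cells stood at 85.1 CPM (wild type) and 40.3 CPM (knockout) in the aorta, and at 28.7 and 6.76 CPM in the lung. General capillary-like cells and aerocytes of the lung gave 0 UMIs in both genotypes. The lung venous-like cluster stood at 296 CPM in wild type, from 8 of 48 cells, and at 48.3 CPM in the knockout, from 4 of 41 cells. Aortic cluster 10, which carried Serpina1b and the fibroblast marker Pi16, stood at 2471 CPM in 6 wild-type cells and at 581 CPM in 51 knockout cells, and 74.5% of its wild-type UMIs came from 1 cell.

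Igfbp3, the main carrier of circulating IGF, was the scarcest in the endothelium of the lung. Its level was 36.7 CPM in the wild-type aorta and 56.1 CPM in the knockout aorta, from 35 and 237 UMIs. In the wild-type lung 9 UMIs in 5 cells gave 6.34 CPM, and the knockout lung gave 0 UMIs in 488 cells, which allows up to 3.22 CPM at 3 counts per library. The aorta was 5.79-fold (2.73 to 13.7) above the lung in wild type. In the knockout it was at least 17.45-fold higher when the lung is set at 3 counts, and the counting interval of the ratio began at 14.1. Neither comparison of Igfbp3 entered the count of genes at least 2-fold apart, which asked for a mean of 50 CPM.

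Within the aorta, Igfbp3 was patchy. The lymphatic-like cluster 8 stood at 126 CPM in wild type and 214 CPM in the knockout, in 6 of 34 and 18 of 117 cells. The venous-like cluster stood at 148 and 20.02 CPM, the arterial-like cluster at 13.04 and 94.4 CPM, and the capillary-like cluster at 39.7 and 127 CPM. Clusters 1 (Klk10 and Isl1) and 10 gave 0 UMIs in both genotypes. The highest level, 603 CPM, was that of the knockout cells of cluster 11 (Alpl and Gper1), from 7 of 23 cells. With genotypes summed that cluster stood at 505 CPM, and its counterparts in the 3 other clusterings at 82.5 to 290 CPM. Fibroblast-like cells stood at 438 CPM in the aorta and 1206 CPM in the lung, but 1 cell held 42 of the 49 UMIs (85.7%) of the wild-type lung fibroblast-like cells, of which 4 of 14 held any.

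Loss of Oct4 in the endothelium is the comparison the study was built for. In the aorta 1.03% of 3001 measured genes, and in the lung 0.715% of 3358, were at least 2-fold apart between the genotypes, and 3 of the 4 members passed the filter on low values in each tissue. None of those 3 was 2-fold apart in the aorta, and Igfbp5 alone was in the lung. The median log2 ratio of all measured genes was 0.02 in both tissues.

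Igfbp4 was 1.95-fold (1.64 to 2.32) higher in the knockout aorta and 1.07-fold (0.922 to 1.24) in the knockout lung. In the aorta it was higher in the knockout in 7 of 7 clusters that had at least 20 cells in both libraries, as 2.77% of measured genes were, and the interval lay above 1 in 5 of them; the capillary-like cluster counts among the 7 with 3 UMIs against 0. The ratio was 2.88 in cluster 3 (Thbs1 and Frzb), 2.47 in the venous-like, 2.45 in the lymphatic-like, 2.06 in the arterial-like and 1.83 in the Klk10 cluster, against 1.18 (0.845 to 1.68) in cluster 2, which carried immediate early genes. In 3 other clusterings, a check chosen after seeing the data, it was also higher in every cluster compared, with the interval above 1 in 4 of 6, 3 of 7 and 4 of 7. The clusters with fewer wild-type cells did not all follow: cluster 11 stood at 1508 CPM in 5 wild-type cells and 183 CPM in 23 knockout cells, and cluster 10 at 194 CPM in 6 and 35.9 CPM in 51. Cluster 5 (Col8a1, Selp and the fibroblast gene Dcn), with 11 wild-type and 179 knockout cells, held 38.7% of the knockout Igfbp4 UMIs, and without it the log2 ratio was 0.63 in place of 0.96.

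Markers of other cells also differed between the aortas, not all in the same direction. The 11 fibroblast markers summed to 381 CPM in wild-type and 1143 CPM in knockout endothelial-like cells, of which Dcn alone gave 710 CPM in the knockout. Of these markers 7 and 9 were above 0, and Dpt and Tcf21 were at 0 in both. Smooth muscle markers summed to 444 CPM in wild type and 698 CPM in the knockout, and pericyte markers to 68.2 and 39.8 CPM. Without cells that held any fibroblast, smooth muscle or pericyte UMI, the log2 ratio of Igfbp4 was 0.50. Within lymphatic-like cluster 8 those fibroblast markers summed to 42.1 CPM in wild type and 43.7 CPM in the knockout. Smooth muscle markers there summed to 0 and 39.3 CPM and pericyte markers to 98.3 and 122 CPM. Igfbp4 in cluster 8 stood at 211 CPM in wild type and 516 CPM in the knockout, and the part of other cells in this was not tested.

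Igfbp7 was 1.36-fold (1.20 to 1.53) higher in the knockout aorta and lower in the knockout lung, at a ratio of 0.901 (0.862 to 0.941). In 4 of the 7 aortic clusters compared the interval of the ratio held 1. Cluster 5, left out of the 7 for its 11 wild-type cells, had a ratio of 5.27 (2.04 to 19.4) on 4 wild-type UMIs. It held 23.3% of the knockout Igfbp7 UMIs, and the capillary-like cluster 7 held 24.2%. Clusters 9, 10 and 11, also left out, had intervals that held 1. In the capillary-like cluster 7, 25 of 59 wild-type cells and 87 of 102 knockout cells held an Igfbp7 UMI, with medians of 0 and 3 UMIs per cell. The ratio there was 3.32 (2.56 to 4.37), the 22nd highest of 1149 genes measured in that cluster, of which 7.83% were at least 2-fold higher in the knockout. The highest wild-type cell held 13 UMIs and the highest knockout cell 64. Thinned to 1000 UMIs, the levels were 697 CPM in 33 wild-type and 2622 CPM in 82 knockout cells.

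Mural cell markers were read in the same cells. In cluster 7 the pericyte markers summed to 132 CPM in wild type, with 3 of 9 above 0, and to 183 CPM in the knockout, with 4 of 9 above 0. Rgs5 led them, at 79.3 CPM (6 UMIs) in wild type and 146 CPM (23 UMIs) in the knockout. Pdgfrb, Cspg4, Abcc9 and Higd1b were at 0 in both. Smooth muscle markers summed to 106 CPM in wild type and 25.3 CPM in the knockout, and fibroblast markers to 0 and 25.3 CPM. Without the cells that held any mural or fibroblast UMI, Igfbp7 stood at 657 CPM in 49 wild-type cells and 2667 CPM in 82 knockout cells. On the log2 scale the ratio was 2.02 without those cells and 1.73 with them. Capillary genes of the cluster were partly near equal between genotypes and partly not. The knockout over wild-type ratio was 1.04 for Gpihbp1, 0.910 for Cd36 and 0.920 for Car4. Rbp7, a fatty acid and retinol binding protein of capillaries, was 12.4-fold higher, Timp4 2.62-fold, Btnl9 2.13-fold and Aqp7 1.65-fold higher, and Lpl stood at 0.584 times the wild-type level. Cluster 7 made up 14.97% of wild-type and 6.69% of knockout aortic endothelial-like cells.

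**Figure D4:**
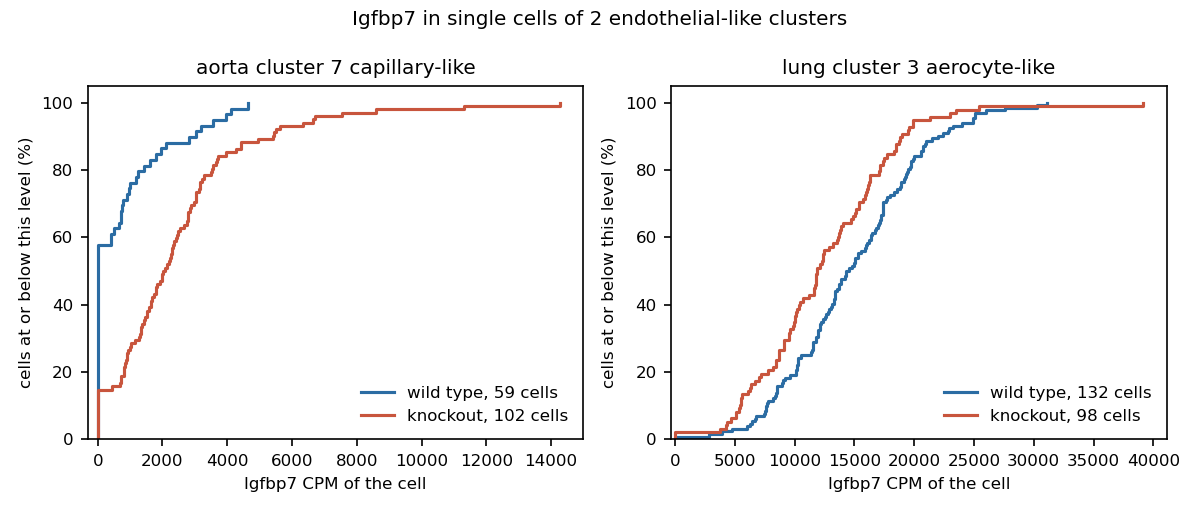
Cumulative share of cells (percent) against the Igfbp7 level of the single cell in CPM, for the aortic capillary-like cluster (left) and the lung aerocyte-like cluster (right), wild type in blue and knockout in red. In the aorta 34 of 59 wild-type cells sit at 0 against 15 of 102 knockout cells, whereas in the lung the 2 curves rise over the same range, with the knockout to the left of the wild type.

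In the aerocytes Igfbp7 was slightly lower in the knockout, at a ratio of 0.910 (0.869 to 0.952), where 3.32% of 3100 measured genes were at least 2-fold apart. In 7 other lung clusters the direction was mixed. Clusters 1, 2, 6 and 7 were higher in the knockout with intervals above 1, at ratios from 1.58 to 2.46, and the venous-like cluster was lower at 0.481 (0.289 to 0.783). The wild-type levels of those 4 clusters were 182 to 399.6 CPM, against the 169 CPM of the macrophage-like cells. The airway gene Scgb1a1, which endothelium does not make, gave 32.4 CPM in wild-type and 424 CPM in knockout lung endothelial-like cells, and its part in these small differences was not tested. The share of lung cells with an Igfbp7 UMI, 41.9% in wild type and 48.0% in the knockout, ran against the CPM, and no order is read from it.

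**Figure D5:**
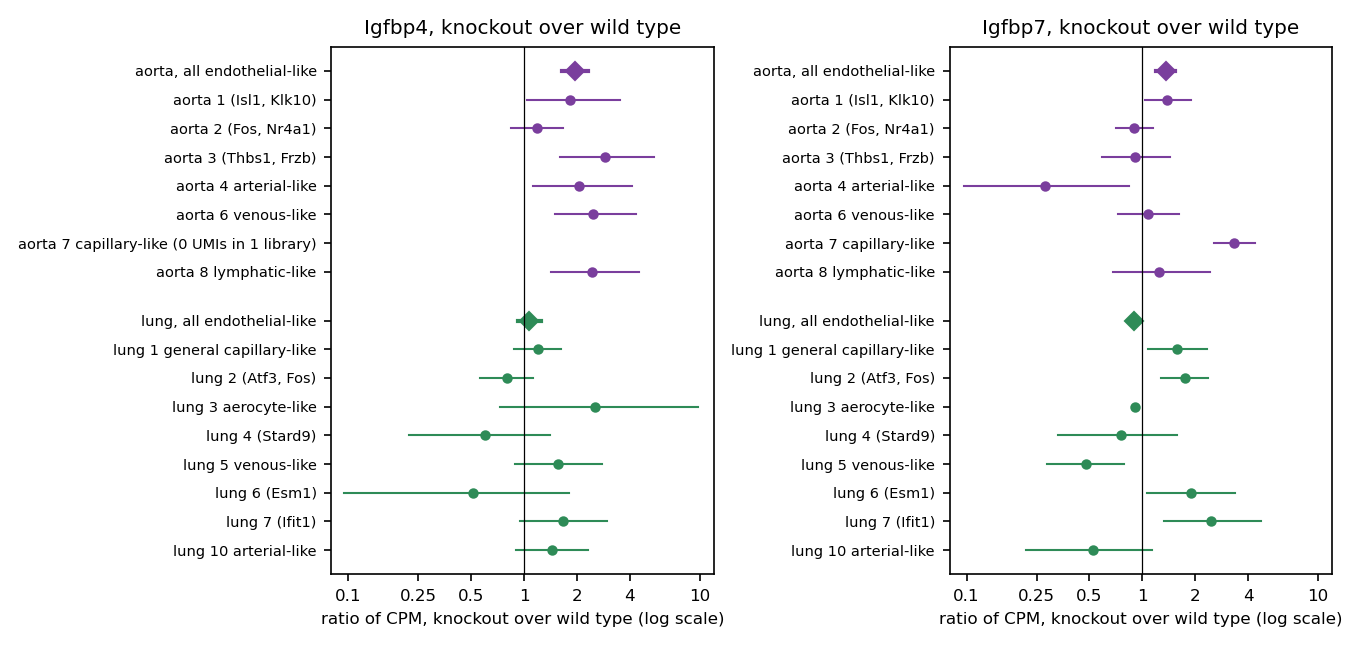
Ratio of knockout to wild-type CPM (log axis) for Igfbp4 (left) and Igfbp7 (right), over all endothelial-like cells (diamonds) and in each cluster with at least 20 cells in both libraries (circles), with exact 95% counting intervals as lines. Aortic values are purple and lung values green, and no point is drawn for Igfbp4 in the aortic capillary-like cluster, with 0 UMIs in wild type. In the aorta all drawn Igfbp4 ratios lie above 1, while for Igfbp7 the capillary-like cluster stands apart at 3.32 and the arterial-like cluster lies at 0.281.

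Igfbp5 stood at a ratio of 1.01 (0.892 to 1.14) between the aortas, and in lymphatic-like cluster 8 the ratio was 1.13 (0.951 to 1.34). Without the lymphatic clusters the log2 ratio was -1.08, on 74 wild-type and 154 knockout UMIs. Of the 74, 51 lay in the 6 wild-type cells of cluster 10, with 38 of them in 1 cell. In the knockout 81 of the 154 lay in cluster 10, with 40 of them in 1 cell. Of the 12 Igfbp5 UMIs in wild-type cluster 1, 66.7% came from 1 cell. In the lung Igfbp5 was 2.05-fold (1.38 to 3.11) lower in the knockout, as at least 2-fold 0.238% of measured genes were, on 106 against 34 UMIs, and lymphatic-like cells made up 5.51% and 3.89% of the cells. Inside the lymphatic-like lung cluster the ratio was 0.872 (0.541 to 1.37), and in the venous-like cluster 0.163 (0.0495 to 0.425). Igfbp3 was 1.53-fold (1.07 to 2.25) higher in the knockout aorta, where it did not pass the filter on low values, while in the lung 9 wild-type UMIs stood against 0. That is at least 1.97-fold lower when the knockout is set at 3 counts, and the counting interval of the ratio reached 1.30-fold lower. Thinned to 1000 UMIs per cell the aortic log2 ratio of Igfbp3 was -0.45 in place of 0.61, so its direction changed with that setting.

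The surroundings of these proteins were read from 40 other genes of IGF signalling. In the aorta 9 of the 40 were abundant enough to measure between genotypes and in the lung 7, and none was at least 2-fold apart in either. Of all measured genes 1.03% and 0.715% were, so with so few genes this count says little about the pathway. The remaining pathway genes fell under the filter and were not compared. The median log2 ratios of the 9 and the 7 were 0.04 and -0.07. The ligands were nearly absent: in the aorta Igf1 stood at 12.6 CPM (wild type) and 6.87 CPM (knockout), and in the lung at 3.52 and 0 CPM. Igf2 stood, in the same order, at 13.6, 1.66, 0.705 and 2.15 CPM. The receptor Igf1r stood at 46.2, 32.5, 62.7 and 59.0 CPM, and Igf2r, which takes IGF2 to lysosomes, at 58.7, 44.3, 18.3 and 17.2 CPM. Igfbp1, Igfbpl1 and Igfals, the acid-labile subunit, gave 0 UMIs in all 4 libraries, and Igfbp6, the most abundant of the other binding proteins, stood at 2.82 to 15.2 CPM. Inside the cell, Foxo1, a transcription factor held out of the nucleus by insulin and IGF signalling, stood at 53.5 to 78.3 CPM.

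Between tissues 1 of 8 measured pathway genes was at least 2-fold higher in the aorta and 1 lower, in each genotype, against 7.95% and 14.5% of all genes in wild type and 7.86% and 16.3% in the knockout. The higher one was Htra1, a secreted serine protease that cleaves IGF binding proteins, at 352 and 373 CPM in the aortas against 4.23 and 4.29 CPM in the lungs. The lower one was Cd93, the surface partner of IGFBP7, at 329 and 339 CPM in the aortas against 746 and 905 CPM in the lungs. Cd93 and Igfbp7 were not high in the same lung capillaries: with genotypes summed, Cd93 stood at 1164 CPM in general capillary-like cells and at 34.8 CPM in aerocytes. In the aortic capillary-like cluster Cd93 stood at 334 CPM. Ctsd, a lysosomal protease, stood at 602 to 735 CPM in the 4 libraries.

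The genes most like each member in level over the 22 clusters were taken among 3182 genes, with the Pearson correlation on the log2(CPM + 10) scale given as a description. Igfbp5 ran closest to Ptn (0.84), Prelp (0.84), Nts (0.82), Fgl2 (0.82) and Serpine2 (0.79), of which Nts and Ptn led the lymphatic-like aortic cluster 9. Igfbp7 ran closest to Sept4 (0.72), Fibin (0.72), Car4 (0.71), Sar1b (0.68) and Selenot (0.65), of which Fibin and Car4 are aerocyte markers used to name the cluster. Igfbp4 ran closest to Acbd6 (0.81), Snrpd2 (0.73), H1f0 (0.69), Xrn2 (0.68) and Lrrc32 (0.67). Igfbp3 ran closest to Ebf1 (0.74), Gar1 (0.73), Hprt (0.73), Tmed2 (0.72) and Sae1 (0.72). Between the members themselves the correlations ran from -0.40 to 0.14.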

How the data were processed

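Endothelial cells sorted from aorta and left lung lobe were measured in 4 libraries, 1 per combination of tissue and Oct4 genotype. The authors deposited raw UMI counts, a whole number for each gene in each cell; per the submitters' processing notes Cell Ranger and mm10 were used. Versions, annotation and strand setting are not given in these sources. Symbols head the aortic rows and Ensembl identifiers the lung rows, and 30934 of 31053 of the latter matched GENCODE M21, 119 did not; rows of one symbol were summed (36 aortic, 28 lung). Of the last 300 bases of the members' transcripts, only those of Igfbp4 shared 50-mers with another gene, at 6.89%.

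Barcodes under 500 UMIs or over 15% mitochondrial UMIs were left out (45, 54, 25 and 21, in the aorta of wild type and knockout, then in the lung of each). Doublets were kept; Scrublet called 4, 4, 6 and 7 (0.990%, 0.255%, 0.774% and 1.38%), so among the 1569 knockout aortic cells it did little, and removing the called cells is an alternative. Free RNA was not corrected. Cells were clustered per tissue, both genotypes together, in scanpy 1.11.5 on 10000-scaled log counts, 2000 variable genes without the members and the pathway genes, 30 components, 15 neighbours and Leiden resolution 1. Names rest on at least 3 detected markers and can differ from the authors' own. CPM of summed counts have exact Poisson 95% intervals, ratios exact conditional ones and shares of cells exact Clopper-Pearson ones, all for counting error only. A count of 0 is limited at 3 counts per library. To enter a comparison, a gene needed 30 UMIs over both libraries and a mean CPM of 50 or more. The intervals and thinning were tested on simulated data. TMM in edgeR 4.0.16 served only as another scaling. With 1 library per group no test was possible.

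The 4 members, 40 pathway genes and the alternatives were chosen with earlier results of these data known. The text names every member, the pathway genes at least 2-fold apart in a comparison they enter, the most abundant of each role, and the 5 genes most like each member; the capillary genes compared in aortic cluster 7 and Scgb1a1 are named after their values were seen. Promoters are those of RefSeq (GRCm38.p6); all 4 members matched.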

Additional observations from a re-analysis of the deposited data

Results flagged for a closer look

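Under the same contrast, the ratio of knockout to wild type ran in opposite directions in the 2 tissues for a pair of members. Igfbp7 stood at a ratio of 1.36 in the aorta and 0.901 in the lung. Igfbp3 stood at a ratio of 1.53 in the aorta, while in the lung it gave 9 UMIs in wild type and 0 in the knockout, and on the log2 scale its aortic ratio was -0.45 with every cell thinned to 1000 UMIs. With 1 library per group neither difference between the tissues was tested.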

How the results depend on the processing

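No paired analysis was possible because each group is 1 library and no groups share replicate numbers beyond that single one, and leaving out a replicate was not possible for the same reason. Of 89 recomputed knockout ratios 74 stayed within counting error of the value reported, and of 77 recomputed ratios between tissues 60 did. The sign changed in 1 of 13 alternatives for Igfbp3 and in 5 of 13 for Igfbp5 between the aortas, in 1 of 12 for Igfbp4 between the lungs and in 3 of 11 for Igfbp4 between tissues in the knockout; the other ratios kept theirs. The log2 ratios that moved follow.

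Between the aortas, leaving out cells with fibroblast, smooth muscle or pericyte UMIs gave 0.50 for Igfbp4, -0.23 for Igfbp5 and 0.79 for Igfbp7. Without aortic clusters 5 and 10, Igfbp4 gave 0.69 and Igfbp5 0.51, and without cluster 5 alone Igfbp4 gave 0.63; both settings were chosen after seeing the data. Without lymphatic clusters Igfbp5 gave -1.08, with per-cell CPM averaged it gave 0.27, with clusters weighted alike Igfbp7 gave 0.88, and thinned to 1000 UMIs Igfbp3 gave -0.45. Between the lungs, Igfbp5 gave -2.09 without lymphatic clusters and -3.03 with clusters weighted alike, and Igfbp7 gave -0.26 over all kept cells, -0.037 with per-cell CPM averaged, and -0.084 with clusters weighted alike. The ratio of Igfbp7 in the aortic capillary-like cluster, 1.73 on the log2 scale, lay between 1.71 and 2.02 in 4 alternatives.

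Between tissues in wild type, Igfbp3 gave 0.16 over all kept cells, which hold 42 Igfbp3 UMIs in 1 lung cell; Igfbp5 gave 1.57 without lymphatic clusters and 3.46 without cells with mural or fibroblast UMIs; Igfbp7 gave -3.09 over all kept cells, -3.72 without those mural or fibroblast cells and -3.13 with per-cell CPM averaged. In the knockout, Igfbp4 gave -0.35 without those cells, -0.40 when thinned and 0.11 with TMM; Igfbp5 gave 2.58 without lymphatic clusters and 4.03 without those cells; Igfbp7 gave -2.33 over all kept cells, -2.81 without those cells, -2.63 with per-cell CPM averaged, -2.82 without mitochondrial, ribosomal and haemoglobin genes, -2.75 when thinned and -2.74 with TMM. The cause of these moves was not tested beyond what each setting leaves out.

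At Leiden resolution 0.5, Igfbp5 stood at 3177 CPM in the cluster matching aortic clusters 8 and 9 and at 532 CPM in that matching lung cluster 8, and Igfbp3 at 82.5 CPM in that matching aortic cluster 11. At resolution 1.5, Igfbp7 stood at 14091 CPM in aerocytes and Igfbp3 at 290 CPM, and with the members kept in the clustering Igfbp3 stood at 254 CPM, against 505 CPM with genotypes summed in the clustering reported. Igfbp7 was higher in the knockout in 57.1% of aortic clusters and in 100% with the members kept; its lower level in the arterial-like cluster had an interval below 1 only in the clustering reported.

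Thinning to 1000 UMIs lowered shares of cells with a UMI. In the wild-type aorta Igfbp4 gave 10.2% and Igfbp7 20.2%. In the knockout aorta Igfbp3, Igfbp4, Igfbp5 and Igfbp7 gave 2.53%, 18.7%, 8.83% and 23.2%. In the wild-type lung Igfbp3, Igfbp4 and Igfbp7 gave 0.164%, 21.6% and 37.6%, and in the knockout lung Igfbp4 and Igfbp7 gave 27.0% and 40.4%.

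The count of genes at least 2-fold apart followed the filter. With a mean of at least 20 CPM, of at least 100 CPM, or at least 1 UMI it was 101, 17 and 4648 between the aortas (31 as reported), 103, 12 and 3631 between the lungs (24), 1336, 383 and 6155 between tissues in wild type (724) and 1433, 431 and 7139 in the knockout (790). For Igfbp3 in the knockout lung, depth allows up to 3.22 CPM behind its 0 UMIs.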
